A study of Musa acuminata AAA Group with 4 samples.

Results

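Ma02_g18240 and Ma02_g18260 are a pair of leucine-rich repeat (LRR) receptor-like kinase genes of Cavendish banana whose id numbers lie close together. They are 2 of the 5520 genes that the authors list as differing between low and normal potassium in leaf or root. Both were chosen by measured values: each appears in the authors' table of leaf and in that of root, with opposite signs. Their low-to-normal ratios are therefore given as descriptions, with no test. Under low potassium the pair was lower in leaf and higher in root, by about an order of magnitude in either tissue.

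LRR receptor-like kinases sit in the plant plasma membrane, with leucine-rich repeats outside the cell that bind peptides, hormones or microbial molecules and a kinase domain inside that passes the signal on. The family serves immunity, growth and development, and many of its genes stand in tandem arrays of similar copies. For both members the first orthology match in the authors' deposited table is the Arabidopsis gene At2g19190, under the name senescence-induced receptor-like serine/threonine-protein kinase. In Arabidopsis that gene is known as FRK1, whose transcript is widely used as a marker of the response to bacterial flagellin.

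The samples were seedlings of Musa acuminata AAA Group, cultivar Cavendish, a triploid dessert banana, treated for 60 days. Controls received complete Hoagland nutrient solution (control, normal potassium) and the other group a solution low in potassium (low-K), and leaves and roots of each were sequenced. The labels name 1 sample for each of the 4 combinations, give no plant age beyond the treatment time and do not say whether plants were pooled. Each comparison is thus between single libraries, with no replicate check. The library totals behind the FPKM values (fragments per kilobase of gene, scaled to library depth) lay between 4203693 and 4555253 fragments. They were computed from the deposited counts, lengths and FPKM values. Whether these totals hold all mapped fragments or those assigned to genes is not given. The tables hold listed genes alone, 1183 in leaf and 4747 in root. Genes outside them were not analysed here. All listed genes have a false discovery rate (FDR) under 0.001 and a log2 ratio of at least 1 in size.

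By their best database matches in the authors' tables, Ma02_g18240 is named probable LRR receptor-like serine/threonine-protein kinase At1g51860 and Ma02_g18260 carries the same name ending in At1g05700. Their listed lengths are 1101 and 1068 bases, or 367 and 356 codons. These gene models are short for the family: the 123 listed LRR receptor kinases have a median length of 2742 bases, and 6 of the other 121 are shorter than either member. The sources used here do not name the genome build behind the ids. In the RefSeq gene table of the Cavendish_Baxijiao_AAA assembly, both matched proteins belong to genes on chromosome 2, in haplotype sets 1 and 3, so their distance on 1 copy of the chromosome was not read. The match of Ma02_g18260 lies 3 entries after that of Ma02_g18220, the listed gene that precedes the pair by id.

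Ma02_g18240 measured 31.4 FPKM in control leaf, 3.29 in low-K leaf, 3.0 in control root and 21.3 in low-K root. The deposited counts behind these levels were 143.59, 14.73, 14.55 and 97.66 fragments. Control leaf and low-K root were thus the high libraries. In leaf the gene was 9.53-fold lower in low potassium, with a 95% interval of 5.50 to 17.2. In root it was 7.09-fold higher (interval 3.99 to 12.8). All intervals here are exact and cover counting error only, and the fragments are PCR products, not independent molecules. In whole leaves or roots, fewer cells of a type and less RNA per cell cannot be told apart.

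Ma02_g18260 measured 6.63 FPKM in control leaf, 0.52 in low-K leaf, 23.5 in control root and 229 in low-K root. Its counts were 29.41, 2.27, 110.45 and 1019.29 fragments. Low-K root stood far above the other libraries, and low-K leaf was close to the limit of detection. The gene was 12.8-fold lower in low-K leaf, where the few fragments leave a wide interval of 3.61 to 123. In root it was 9.75-fold higher (interval 8.03 to 12.02). At 229 FPKM it was the highest of the 87 LRR receptor kinases listed in root, ahead of SOBIR1 (Ma02_g07950), a co-receptor of receptor-like proteins in Arabidopsis immunity, at 103 FPKM.

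**Figure D1:**
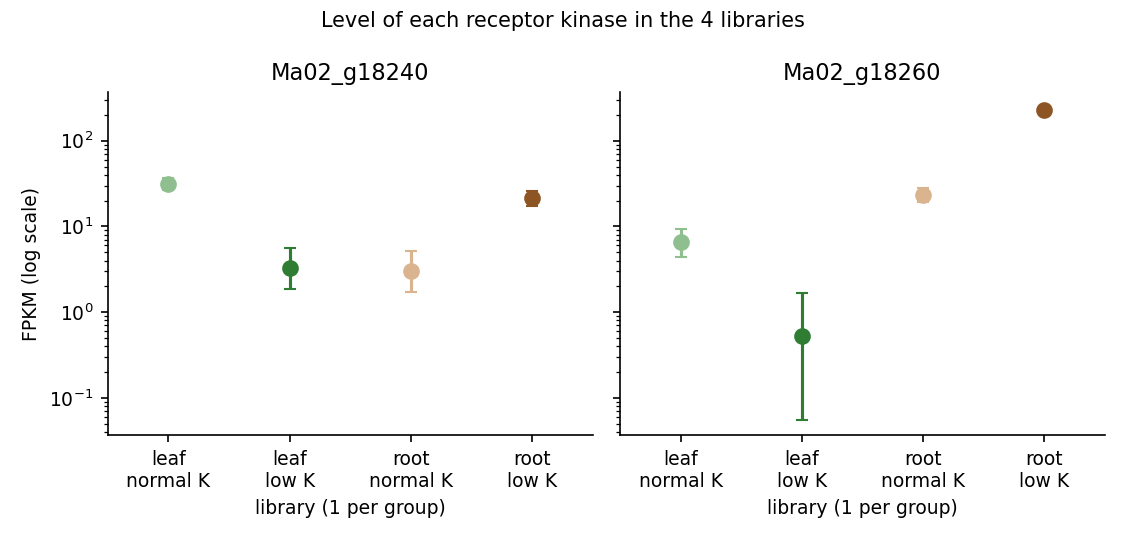
FPKM (log scale) of Ma02_g18240 and Ma02_g18260 in the 4 libraries, 1 point per library, with bars for the 95% counting interval. Each gene is lower in low-K than in control leaf and higher in low-K than in control root.

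Both members are among the genes listed as lower in leaf, which make up 32.6% of that table, and among those listed as higher in root, 40.4% of that table. Since the choice of members used these directions, nothing is read from the counts. By size of log2 ratio, Ma02_g18260 ranked 21 and Ma02_g18240 ranked 34 among the 386 genes lower in leaf. Among the 1917 genes higher in root they ranked 173 and 264. Both lie inside the limits of the table. The largest of their FDR values in the authors' deposited table was 5.78e-06, for Ma02_g18260 in leaf. The smallest log2 ratio was 2.83, for Ma02_g18240 in root. The next receptor kinase by id, Ma02_g18290, falls outside the choice because it is listed in root alone.

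The counts of the members are not whole numbers, which happens where a counting program divides fragments between similar sequences. Summed over both genes, they came to 173.00, 17.00 and 125.00 fragments in control leaf, low-K leaf and control root, and to 1116.95 in low-K root. The sum was whole in 3 libraries and 0.05 short of whole in the other. In low-K root some fragments may thus be shared with a gene outside the pair, which was not tested. The files do not give how many fragments were divided, so the values of either gene alone are uncertain, while the sum does not depend on the division between them. Scaled to library depth, the summed count was 9.94-fold lower in leaf under low potassium (interval 6.03 to 17.5). In root it was 9.44-fold higher (interval 7.84 to 11.4).

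The division within the pair followed tissue more than potassium. Ma02_g18260 held 17.0% of the summed fragments in control leaf (interval 11.5% to 23.2%) and 13.4% in low-K leaf (interval 1.46% to 36.4%). In root it held 88.4% (interval 81.0% to 93.1%) and 91.3% (interval 89.4% to 92.8%). The leaf and root intervals do not overlap, and those of low and normal potassium overlap within each tissue. The odds of a fragment being assigned to Ma02_g18260 were 35.7 times as high in root as in leaf in normal potassium (interval 17.8 to 76.0). In low potassium they were 77.3 times as high (interval 17.6 to 706). Between low and normal potassium the odds differed by less than counting error: their ratio was 0.663 in leaf (interval 0.0699 to 3.10) and 1.42 in root (interval 0.738 to 2.56). How the counting program divided fragments bears on all of these odds and was not tested.

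**Figure D2:**
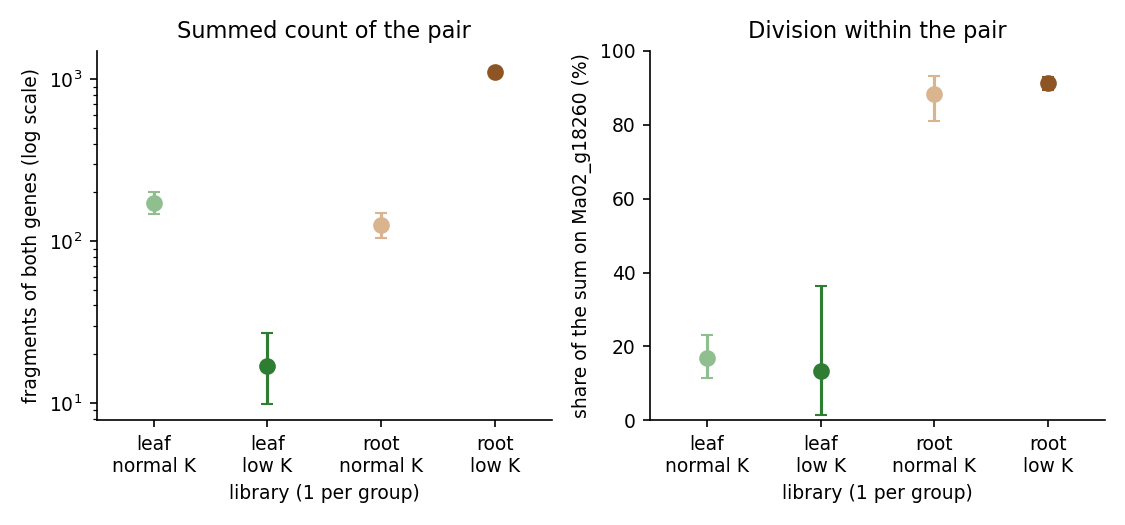
Left, summed fragments of both genes (log scale), and right, the percentage of them on Ma02_g18260, in the 4 libraries, with bars for 95% counting intervals. The sum is lowest in low-K leaf at 17.00 and highest in low-K root at 1116.95, while the share on Ma02_g18260 is 13.4% to 17.0% in leaf and 88.4% to 91.3% in root.

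Since FPKM is per length, the levels of both genes can also be set against each other within a library. Ma02_g18240 was the more abundant in leaf, 4.73-fold above Ma02_g18260 in normal potassium (interval 3.21 to 7.44) and 6.33-fold in low potassium (interval 1.70 to 65.9). In root Ma02_g18260 was the more abundant, by 7.83-fold (interval 4.39 to 14.0) and 10.8-fold (interval 8.72 to 13.3). These ratios restate the division of fragments given above. The intervals leave out the uncertainty of how the counting program divided them.

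Leaf and root values stand in separate tables, scaled per library by the authors, and levels across them are given with that limit. For Ma02_g18240 the order was control leaf, low-K root, low-K leaf and control root. Control leaf was 1.47-fold above low-K root (interval 1.13 to 1.93). Low-K leaf and control root differed by less than counting error, with a ratio of 1.10 and an interval of 0.493 to 2.38. The leaf was thus 10.4-fold above the root in normal potassium (interval 5.96 to 18.6), and the root 6.46-fold above the leaf in low potassium (interval 3.68 to 11.8). For Ma02_g18260 the order was low-K root, control root, control leaf and low-K leaf. The root was above the leaf in both conditions, 3.54-fold in normal potassium (interval 2.36 to 5.59) and 440-fold in low potassium (interval 138 to 4132). No neighbours in that order had a counting interval of their ratio that included 1.

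Of the 410 genes listed in both tissues, 111 were listed in opposite directions, or 27.1%. Those 410 genes are 34.7% of the leaf table and 8.64% of the root table. The members share their combination, lower in leaf and higher in root, with 28 others: 30 genes in all, or 7.32%. Ma02_g18260 and Ma02_g18240 ranked 1 and 2 of the 410 by the root log2 ratio minus the leaf log2 ratio, at 6.96 and 6.08. That order runs in the direction the pair was chosen for. By size in either direction they ranked 3 and 7, since 2 and 5 genes of the reverse combination had larger differences. For 9 of the 410 with no fragment in a library, the ratio was taken with that library set to 3 counts.

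**Figure D3:**
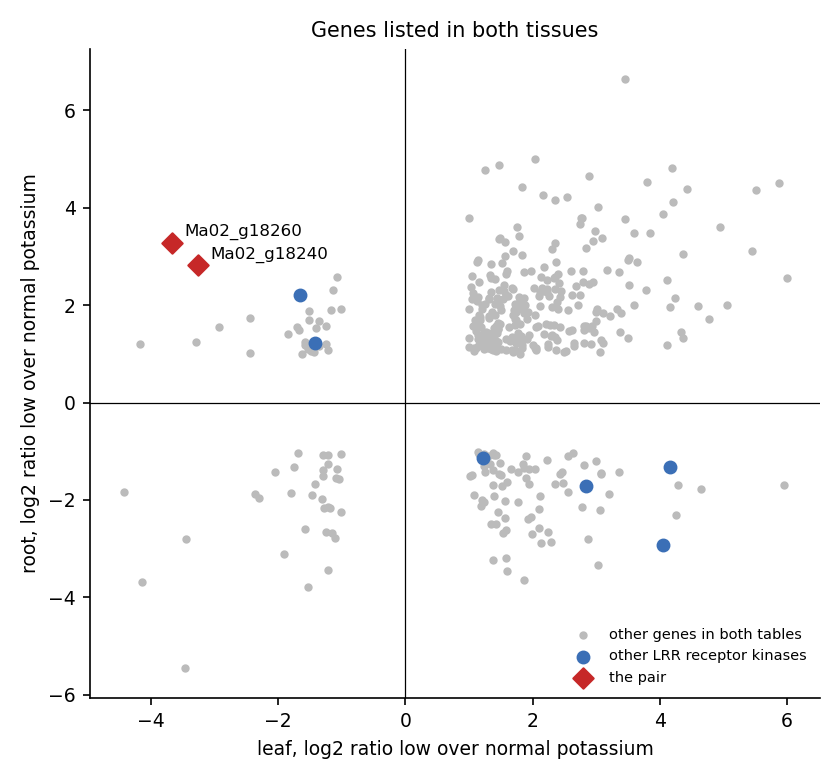
Log2 ratio of low over normal potassium in leaf (horizontal) and root (vertical) for the 410 genes listed in both tissues, 1 point per gene, with genes at 0 placed against a floor of 3 counts. The pair lies in the upper left corner of the plot, apart from the other 28 genes of that quadrant, and the other 6 LRR receptor kinases lie in the upper left and lower right quadrants.

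The words used to pick LRR receptor kinases gave 8 genes listed in both tissues, the members included. All 8 were listed in opposite directions, beside the 27.1% for all genes in both tables. Of the 6 that did not enter through the choice of the pair, 2 were lower in leaf and higher in root and 4 the reverse. Of the other genes named as receptor-like kinases, outside that list, 1 of 6 in both tables was opposite. The list also takes in names without LRR, those of TMK1 (Ma08_g31260) and a BAK1-like gene (Ma02_g05100). An LRR kinase under another name can fall outside it, so the 8 and the 6 are sets of names. No test was made of these counts, and each gene rests on single libraries.

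These kinases are called by the names of their best database matches, and the deposited orthology matches differ for some. Ma06_g10830, named GSO2 after an Arabidopsis kinase that binds peptides guiding the Casparian strip, has the tomato EIX receptors, which lack a kinase domain, as its orthology match. It measured 18.9 and 5.99 FPKM in control and low-K leaf and 0.90 and 4.15 in root. It was thus 3.15-fold lower in leaf (interval 2.40 to 4.13) and 4.61-fold higher in root (interval 2.41 to 9.41). Ma03_g18450, named as the tyrosine-protein kinase At2g41820 but with a ribosomal protein as its orthology match, measured 10.4 and 3.87 FPKM in leaf and 10.6 and 24.6 in root, 2.68-fold lower and 2.32-fold higher.

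The reverse order was seen for 4 kinases. TMK1 (Ma08_g31260), of a kinase group that acts in auxin signalling in Arabidopsis, measured 0.25 and 4.12 FPKM in leaf and 18.7 and 2.46 in root. It was 16.5-fold higher in leaf (interval 5.32 to 82.7) and 7.61-fold lower in root (interval 5.21 to 11.6). The BAK1-like gene (Ma02_g05100), a co-receptor of brassinosteroid and flagellin receptors in Arabidopsis, measured 0.12 and 2.14 FPKM in leaf and 18.2 and 7.31 in root. Its leaf value in normal potassium rests on 1 fragment, and its leaf ratio of 17.8 has an interval of 2.82 to 743. BAM1 (Ma04_g14570), a receptor of CLE peptides in Arabidopsis, had no fragment in control leaf and 21 in low-K leaf. With that library set to 3 counts it was at least 7.15-fold higher, with the 21 fragments taken as exact, and in root it was 3.28-fold lower. Ma08_g19670, named GSO1 and with the flagellin receptor FLS2 as its orthology match, was 2.33-fold higher in leaf and 2.19-fold lower in root.

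**Figure D4:**
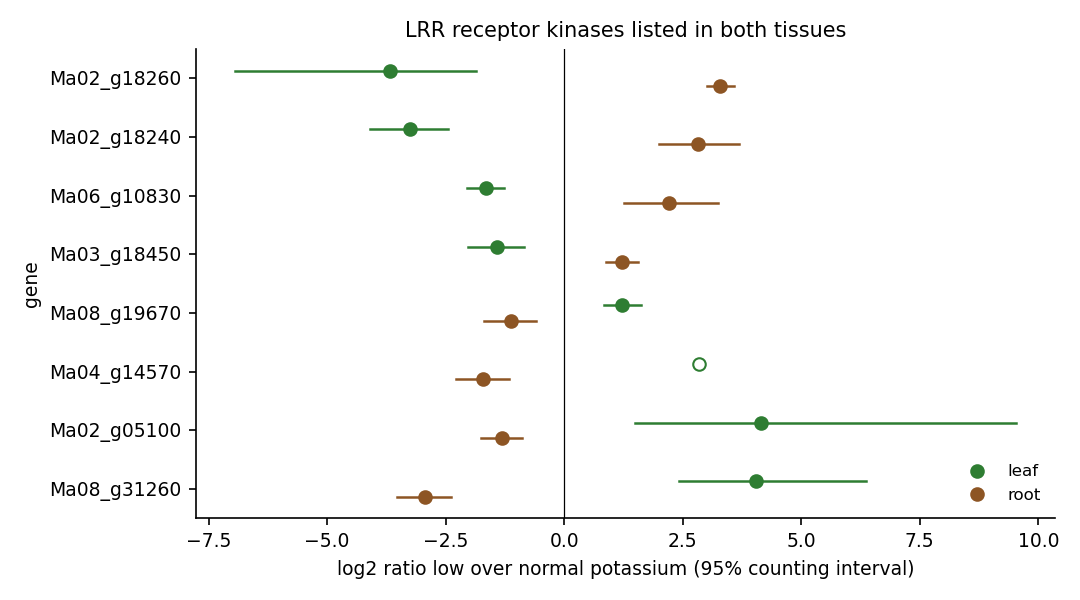
Log2 ratio of low over normal potassium in leaf and root for the 8 LRR receptor kinases listed in both tissues, with lines for 95% counting intervals and an open point for BAM1 (Ma04_g14570) in leaf, a lower bound against 3 counts. The pair and 2 other kinases are lower in leaf and higher in root, and 4 kinases are the reverse.

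Among genes counted by name as LRR receptor kinases, lower was the more common direction in leaf and in root. Of 44 LRR receptor kinases listed in leaf, 35 were lower, beside 32.6% of all listed leaf genes, and their median log2 ratio was -1.65 against 1.32 for all listed genes. Of 87 listed in root, 26 were higher, beside 40.4% of all listed root genes, with a median of -1.58 against -1.20. Without the pair, 33 of 42 were lower in leaf and 24 of 85 higher in root. Of the 35 lower in leaf, 19 have the EIX receptors as first orthology match, so that a kinase domain is not certain for them, and without such genes 16 of 24 were lower in leaf. In root 3 genes of this kind are listed, all higher, and without them 23 of 84 were higher. Counts that were not whole marked 29 of the 35 kinases lower in leaf, or 82.9%, against 36.0% of all genes lower in leaf. In root they marked 12 of the 26 kinases that were higher, or 46.2%, against 31.4% of all genes higher in root. Genes that share fragments do not have separate values, and the counts of kinases are uncertain to that extent. The GSO2 copies Ma06_g10790, Ma06_g10800 and Ma06_g10820 have such counts and were 3.11-fold, 3.17-fold and 4.19-fold lower in leaf.

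The receptor lists are small, and their directions stand beside 67.4% higher and 32.6% lower over all listed genes in leaf, and 40.4% higher and 59.6% lower in root. The kinases named At3g47570, akin to the immune receptors EFR and Xa21, were lower for 2 of 2 in leaf (Ma06_g35660 and Ma06_g35640) and higher for 2 of 2 in root (Ma02_g17550 and Ma07_g13300). The leaf genes are close by id and their counts were not whole, so they may share fragments. Ma06_g35660 rests on 6.65 fragments in low-K leaf. The flagellin receptor gene FLS2 (Ma04_g35850) was 2.02-fold higher in root (interval 1.63 to 2.52). The list of flagellin and peptide receptors counted 4 higher and 12 lower in leaf and 3 higher and 2 lower in root, each including 1 gene for phytosulfokine, a peptide hormone and no receptor. Those lower in leaf include the GSO2-named Ma06_g10790, Ma06_g10800, Ma06_g10820, Ma06_g10830 and Ma04_g32810. Their counts were not whole, so they may share fragments and are not certain to be separate cases. The phytosulfokine gene of leaf (Ma06_g36490) measured 70.1 and 16.4 FPKM, and that of root (Ma09_g26860) 22.5 and 93.9 FPKM. In root a second GSO1 gene (Ma01_g05590) measured 11.5 and 4.25 FPKM. Brassinosteroid receptor and co-receptor genes were higher for 1 of 1 in leaf, the BAK1-like gene named above, and lower for 3 of 3 in root, in each case the more common direction of all listed genes. Besides that gene these were Ma11_g15160, at 17.6 and 8.15 FPKM, and Ma01_g22730, at 6.77 and 1.68 FPKM.

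The orthology group of the pair in the deposited tables, chosen after its values were seen, held 5 listed genes in leaf and 12 in root. In leaf 4 of them were lower, beside 32.6% of all listed genes, and in root 6 were higher, beside 40.4%. Without the members, chosen for these directions, 2 of 3 were lower in leaf and 4 of 10 higher in root. The most abundant, Ma07_g26520, measured 260 and 107 FPKM in leaf, 2.43-fold lower (interval 2.28 to 2.60). In root Ma09_g05810 was 4.05-fold higher (interval 2.23 to 8.33), and Ma07_g26510, which carries the senescence-induced name itself, was 2.26-fold higher (interval 1.66 to 3.11). Ma11_g22870 went the other way, 8.46-fold lower in root (interval 6.04 to 12.2). The members had the largest ratios among the genes of this group that were higher in root and among those lower in leaf. As they were chosen by these values, that order is a description. In leaf it covers 4 genes, and the value of Ma02_g18260 rests on 2.27 fragments in low-K leaf.

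Around the pair, 21 of the 103 possible ids within 500 of either member are listed, counting in steps of 10. In leaf 2 were higher and 5 lower, and in root 8 were higher and 9 lower. Without the members, 3 of 5 were lower in leaf, beside 32.6% of all listed genes, and 6 of 15 higher in root, beside 40.4%. The third receptor kinase of that window, Ma02_g18290 (named At2g19210), measured 1.87 and 5.18 FPKM in root, 2.77-fold higher (interval 1.57 to 5.203). On the other side, the transcription factor bHLH155-like gene (Ma02_g18220) measured 45.6 and 16.5 FPKM in leaf, 2.77-fold lower. The sugar nucleotide enzyme mannose-1-phosphate guanylyltransferase (Ma02_g18300), next after the kinases, was 3.24-fold lower in root. The other root genes of the window that were higher encode a RuBisCO activase (Ma02_g18190, 2.02-fold), the bHLH115-like transcription factor (Ma02_g18320, 2.30-fold), a heat shock factor (Ma02_g18440, 3.87-fold) and an uncharacterised protein (Ma02_g18050, 7.82-fold from 5 fragments). Those lower in root encode phosphofructokinase 6 (Ma02_g18360, 5.67-fold), an IQ-domain protein (Ma02_g18430, 4.22-fold), an expansin (Ma02_g18110, 3.69-fold) and an osmotin-like protein (Ma02_g17990, 2.81-fold). The others lower in root ranged from 2.19-fold to 2.34-fold: Ma02_g17880, actin-depolymerizing factor 7 (Ma02_g17970), a proton ATPase subunit (Ma02_g18490) and a methanol O-anthraniloyltransferase-like gene (Ma02_g18690). In leaf a GATA transcription factor (Ma02_g18510) measured 0.32 FPKM, from 1 fragment, and 11.1 FPKM. An aspartic proteinase (Ma02_g18160) was 4.68-fold higher in leaf, and a ruvB-like gene (Ma02_g17890) 2.11-fold lower. Besides the pair, the window held 1 gene listed in both tissues, MYBAS2 (Ma02_g17950), a MYB transcription factor. It measured 22.2 and 6.98 FPKM in leaf and 31.2 and 87.3 in root, and so had the same combination of directions as the pair. Listed genes of opposite direction stood between and around these, as the plot by id number shows.

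**Figure D5:**
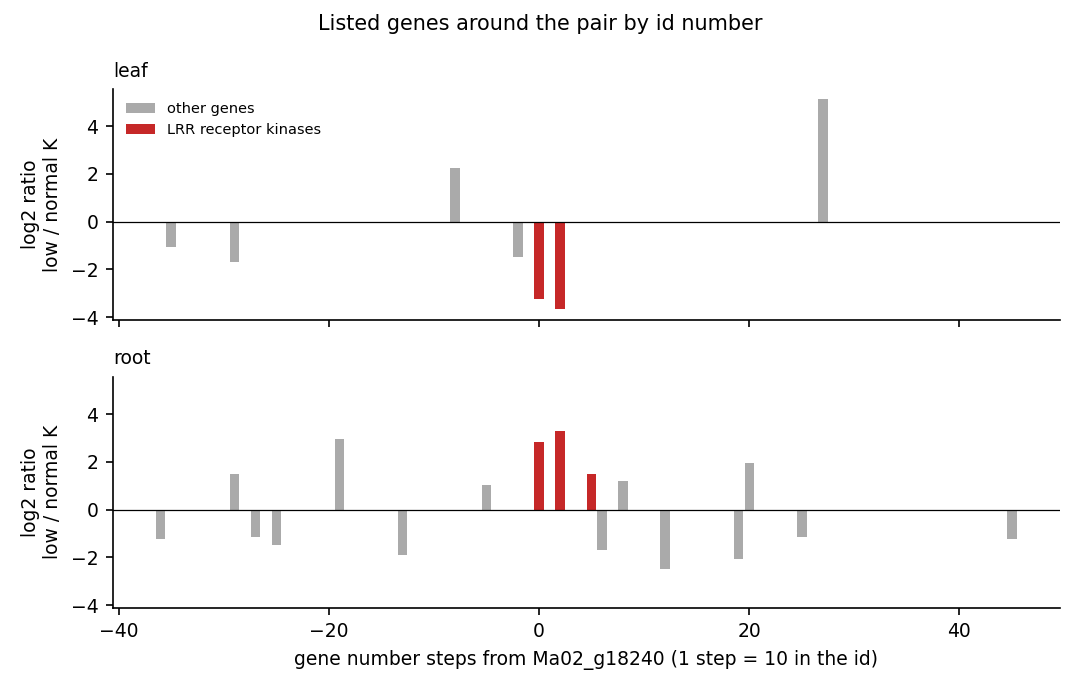
Log2 ratio of low over normal potassium in leaf (top) and root (bottom) for listed genes by id number, in steps of 10 from Ma02_g18240, with LRR receptor kinases in red. The 3 kinases stand together, and the other listed genes of the window are of both directions in both tissues.

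Among genes in both tables the nearest to each member, by Euclidean distance over the leaf and root log2 ratios, was the other member, at 0.62. The members were chosen for their directions in these ratios, and fragments may be divided between them, so nothing is read from their closeness. The next nearest to both was Ma05_g09980, named as naringenin 3-dioxygenase-like, at 1.32 from Ma02_g18240 and 1.89 from Ma02_g18260. Its orthology matches are flavonol synthase, feruloyl-CoA ortho-hydroxylase and a mugineic acid dioxygenase, so its pathway is not certain. This gene measured 12.9 and 1.70 FPKM in leaf and 14.8 and 43.4 in root. Then followed Ma08_g13690, for which the tables give no name, and Ma02_g04590, an uncharacterised protein. The fifth was Ma06_g10830, named GSO2, for Ma02_g18240, at 1.71, and a wall-associated kinase-like gene (Ma01_g04500) for Ma02_g18260, at 2.14. Wall-associated kinases bind pectin of the cell wall. The wall-associated gene measured 1.97 and 0.11 FPKM in leaf, the latter from 1 fragment, and 4.89 and 11.3 in root. The distances rest on 4 libraries and are descriptions.

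Only markers that the authors list could be counted, so each differs by the choice of the tables, and the summed levels below run over listed genes alone. Of all listed genes, 67.4% were higher in leaf and 40.4% in root. Green tissue genes were higher for 7 of 7 listed in leaf, from a summed 375 to 1037 FPKM, and for 3 of 3 in root, from 16.7 to 81.2 FPKM, with none at 0. Immune response genes (pathogenesis-related proteins, chitinases, thaumatins and WRKY factors) were higher for 20 of 25 in leaf and 75 of 91 in root. Their summed level went from 488 to 1055 FPKM in leaf, where the pair was lower, and from 3681 to 11930 FPKM in root, where it was higher, and WRKY71 (Ma06_g28830) was at 0 in control leaf. Genes linked to root function (aquaporins, laccases, nicotianamine synthases, Casparian strip and root hair proteins) were higher for 2 of 3 in leaf and 13 of 26 in root, with sums of 72.5 and 236 FPKM in leaf and 6536 and 17040 FPKM in root. An aquaporin PIP2-6 gene (Ma08_g34310) was at 0 in low-K root. The part of these marker genes in the values of the pair was not tested.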

How the data were processed

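Per the labels' protocols, RNA from leaves and roots was extracted with CTAB, treated with DNase, selected on oligo(dT) beads and sequenced after steps that do not mark the strand, so antisense reads cannot be told apart. The sources used here name no aligner, no program for counting, no genome build and no test. Per the file headers, the columns of a table are expression and FPKM of both libraries, log2 ratio, p-value and FDR. What the authors deposited as expression holds estimated counts, of which between 25.2% and 28.1% lie more than 0.05 from a whole number. The deposited FPKM values are 0.001 where the count is 0. The deposited log2 ratio equals the log2 of the FPKM ratio. The deposited p-value and FDR compare 2 libraries and not 2 conditions, and no listed gene has an FDR above 0.001. Length in bases is a multiple of 3 for 95.3% of leaf and 95.4% of root genes, so it is a coding length. The short deposited table on potassium transport was not used here.

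Fragments per library were recovered as the slope of count over FPKM against length, for genes with a count above 100 and FPKM above 5, dropping those more than 1% off the line. For the members the line returned the deposited FPKM within rounding. A fold is the ratio of FPKM values, with the exact Clopper-Pearson interval (95%) of one count given the sum, rounded to whole numbers. Intervals of single counts are exact Poisson. Odds are conditional estimates with exact intervals. The interval and depth functions were tested on simulated data. Python 3.11.15, pandas 2.3.3, NumPy 2.4.6 and SciPy 1.17.1 were used.

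With 1 library per group no test was possible, and a gene counts as higher or lower when the authors list it. Gene lists came from words in the names. The members, lists and rules for naming genes were chosen with earlier results of these data known. Named were the pair, LRR receptor kinases of opposite direction in both tables, the listed genes of the id window (ids within 500), the 5 genes nearest to each member, over genes with 10 or more counts in the higher library of each tissue, and up to 5 genes of each receptor list by mean FPKM. Genes of the orthology group, SOBIR1 and the markers at 0 were named after their values were seen. RefSeq protein accessions matched 4413 of the 5437 genes that carry one. No sequence of the members was used here.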

Additional observations from a re-analysis of the deposited data

Results flagged for a closer look

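The direction of the low-potassium difference was opposite in leaf and root for the 12 genes given below. Other named genes, such as MYBAS2 (Ma02_g17950) and WRKY33 (Ma11_g18140), were opposite too. With 1 library per group in each tissue, the difference between tissues was not tested. As root log2 ratio minus leaf log2 ratio, it was 6.96 for Ma02_g18260 and 6.08 for Ma02_g18240, the pair chosen for it. Among the other LRR receptor kinases it was 3.86 for Ma06_g10830, named GSO2, and 2.63 for Ma03_g18450. It was -2.35 for Ma08_g19670, named GSO1, -5.48 for the BAK1-like gene (Ma02_g05100) and -6.97 for TMK1 (Ma08_g31260). For BAM1 (Ma04_g14570) it was -4.55 with the empty leaf library at 3 counts. Among the genes nearest to the pair in pattern it was 5.37 for the wall-associated kinase-like gene (Ma01_g04500), 4.54 for Ma02_g04590, 4.48 for Ma05_g09980 and 4.18 for Ma08_g13690.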

How the results depend on the processing

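Each of the 4 log2 ratios of the members kept its direction and stayed inside its counting interval under all 4 alternatives: counts over depth, pseudocounts of 0.1 and 1 FPKM, and both members summed. The furthest was Ma02_g18260 in leaf with a pseudocount of 1 FPKM, at -2.33 against -3.67. Counts over depth are no separate check, because depth was recovered from the same counts and FPKM values. The summed setting mostly reflects Ma02_g18240 in leaf and Ma02_g18260 in root, so it says little about the other member there. Genes of opposite direction in both tables numbered 13 in place of 111 at a log2 ratio of 2 or more, and 51 when only genes with whole counts were kept. For LRR receptor kinases the same settings gave 3 and 4 in place of 8. With whole counts only, 4 of 4 such kinases in both tables were opposite, and 51 of 231 genes. Kinases lower in leaf numbered 16 at a log2 ratio of 2 or more, 6 with whole counts and 62 when any receptor-like kinase was counted, in place of 35. Kinases higher in root numbered 8, 14 and 68 under these settings, in place of 26. Without genes whose first orthology match is the EIX receptors, 16 were lower in leaf, 23 higher in root and 7 opposite. This and the restriction to whole counts were chosen after seeing the data, and the latter leaves out both members. Filters at 1 FPKM and a pseudocount of 1 FPKM left these counts within 1.5 times. The window of ids was not varied. No paired analysis was possible because each group has 1 library. The leaf ratio of Ma02_g18260 rests on 2.27 fragments in low-K leaf.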

Other observations

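Of the 30 genes lower in leaf and higher in root, 2 belong to the immune response list, which was higher in leaf for 20 of 25 listed genes. That list holds 25 of the 1183 genes listed in leaf and 91 of the 4747 in root. Its share of the 410 genes in both tables was not computed, so nothing is read from the 2. These 2 genes and 3 others, all picked after their values were seen, are given as examples with no common theme tested. Genes of other kinds are among the 30 too, such as those named as copper transporter 6-like (Ma02_g05010) and polyol transporter 1 (Ma04_g07020). WRKY33 (Ma11_g18140), a transcription factor of the immune response in Arabidopsis, measured 16.2 and 7.40 FPKM in control and low-K leaf and 4.35 and 21.5 in root. It was 2.19-fold lower in leaf (interval 1.55 to 3.14) and 4.94-fold higher in root (interval 3.33 to 7.54). WRKY41 (Ma03_g17210) was 2.96-fold lower in leaf and 2.36-fold higher in root. An MLO-like gene (Ma08_g19130), of a family known from powdery mildew susceptibility in barley, was 2.79-fold lower and 2.08-fold higher. A remorin-like gene (Ma04_g22800), of a family of plasma membrane proteins, measured 180 and 76.1 FPKM in leaf and 183 and 422 in root. A flavonoid 3',5'-hydroxylase gene (Ma11_g14250) measured 9.73 and 3.69 FPKM in leaf and 117 and 338 in root.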
